A study of Mus musculus with 7 samples.

Results

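The 32 interferon-stimulated genes described here were chosen by gene symbol, with no measured value in the rule. The choice was nevertheless made with earlier results of these data known. The set holds sensors of viral nucleic acid, antiviral effectors, guanylate-binding proteins and STAT and IRF transcription factors. All 32 were present among the 55228 rows of the read count table. Of these, 26 passed the filter on low counts and were tested among 15798 genes, and 6 (Dhx58, Zbp1, Ifit1, Mx1, Ifi44 and Iigp1) were too low to be tested. RNA came from primary granulosa cells, the supporting cells around each oocyte in a follicle, taken from ovaries of untreated C57BL/6J mice. There were 4 wild-type (WT) libraries and 3 libraries labelled Fhl2 knockout (Fhl2 KO). Fhl2 codes for an adaptor built of LIM domains, and the series title places the study in follicle development and EGF receptor and YAP signalling. The sources used here do not say how the Fhl2 allele was made, how old the mice were or whether the cells were cultured.

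Type I interferons bind a receptor whose kinases JAK1 and TYK2 activate STAT factors, among them STAT2, which join IRF9 and bind the interferon-stimulated response element (ISRE) in promoters. Interferon gamma acts mainly at another element, the gamma-activated site (GAS), and through IRF1. The induced genes sense viral RNA, block viral entry and replication, or tune the response itself, and many are kept at a low level in unstimulated cells. Mouse granulosa cells are known to carry RNA sensors and to raise such genes when given synthetic viral RNA.

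The libraries held 38855596 to 50514556 counts. Fhl2 had 3910, 5732, 4958 and 4798 reads in WT libraries 1 to 4 and 1880, 3132 and 2749 in KO libraries 1 to 3, so reads of the gene remained in each KO library. Its log2 fold change was -0.88 (SE 0.107, edgeR adjusted p = 3.3e-05), and such counts hold no information on the exons that were read. KO libraries 2 and 3 stood apart from the others in how read levels depended on transcript length, with slopes of -0.17 and -0.133 in log2 level per doubling of length, against 0.0572 to 0.0852 in WT and 0.000268 in KO library 1. Values corrected for length and GC content are therefore given for many, but not all, of the genes that passed, and for others as named. Genes listed as markers of other cells also moved with genotype, and whether the mix of cells differed was not tested. Of theca and stroma markers, 5 of 7 tested were lower (summed level 1020 to 1138 CPM, counts scaled by library size, in WT and 525.2 to 587.0 in KO). Of surface epithelium markers, 4 of 7 were higher (138.3 to 153.3 and 161.0 to 205.6). Lung epithelium markers summed to 0.150 to 0.756 CPM in WT and to 11.6, 27.6 and 1.30 CPM in KO libraries 1 to 3. Of the granulosa cell markers, 9 of 10 were well detected, 2 higher and 4 lower, and the aromatase gene Cyp19a1 had 0 reads in each WT library and 8, 17 and 6 in the KO libraries. Over all genes tested, 13.5% were higher and 15.6% lower at the threshold given below. The part of the length and marker shifts in the results below was not tested.

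Among the 26 tested genes, 5 rose in the KO libraries (Usp18, Oasl2, Ifi35, Ifitm3 and Bst2), 1 fell (Eif2ak2) and 20 did not pass. A gene passed at a Benjamini-Hochberg adjusted p under 0.05 in edgeR's quasi-likelihood test, with p adjusted over all genes tested. That is 23.1% of the set, where 29.0% of all genes tested passed, 13.5% as higher and 15.6% as lower. The share of the set that passed was thus no greater than that of the transcriptome. Of the genes that passed, only Usp18 changed at least 2-fold. The median log2 fold change (KO over WT) over the 26 genes was 0.35, with 20 above 0 and 6 below, beside -0.00 over all genes tested, of which 7894 were above 0. The KO libraries did not overlap the WT libraries for 5 of the 26 genes (19.2%), all with KO above WT, beside 34.2% of all genes tested (16.4% with KO above). These were Usp18, Oasl2, Ifi35, Ifitm3 and Irf7. In bulk RNA of this kind, fewer cells of a type and less RNA per cell cannot be told apart.

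**Figure D1:**
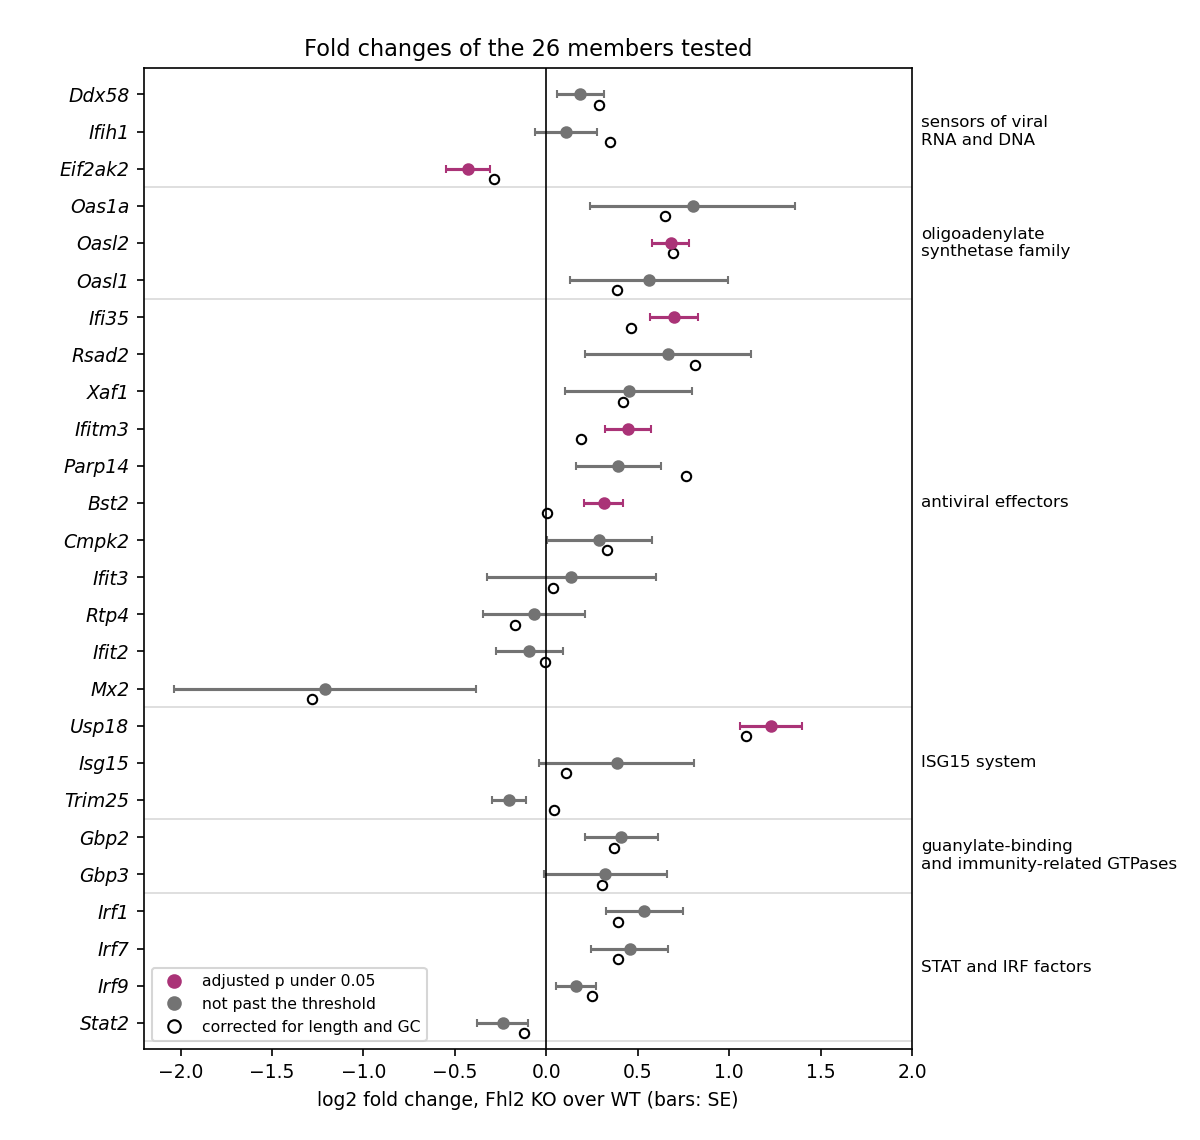
Log2 fold change (x axis, Fhl2 KO over WT, filled points with bars of 1 SE) of the 26 genes tested, grouped by role, with genes past adjusted p 0.05 in colour and open circles for the value corrected for length and GC content. Usp18 stands farthest to the right at 1.23, and the open circle of Bst2 sits at 0.00.

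How each library contributed to this shift was read from the median, over the 26 genes, of the difference from the WT mean on a log2(CPM + 0.5) scale. That median was -0.07, 0.03, 0.12 and 0.00 in WT libraries 1 to 4, with 9, 15, 17 and 13 of the 26 genes above the WT mean. It was 0.17, 0.24 and 0.37 in KO libraries 1 to 3, with 18, 18 and 19 of the 26 genes above the WT mean. Over all genes tested the same median stayed between -0.01 and 0.01 in every library. The median of each KO library was therefore above that of each WT library, but KO library 1 was close to WT library 3. Each WT library is also part of the WT mean, which draws its own difference towards that mean. The count of genes that passed depended on which libraries were used. Without KO library 1, 8 passed (6 higher, 2 lower), where 41.6% of all genes passed. Without KO library 3, 3 passed (all higher), where 10.2% of all genes passed. For KO library 1 alone against WT, 2 passed (Usp18 and Oasl2), where 4.60% of all genes passed. In that comparison the spread comes from the WT libraries only and the lone KO library is assumed to vary like them, so a call lost there also reflects the smaller group. With length and GC content corrected, the median was 0.32, with 4 genes higher and 1 lower, where 23.5% of all genes passed.

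**Figure D2:**
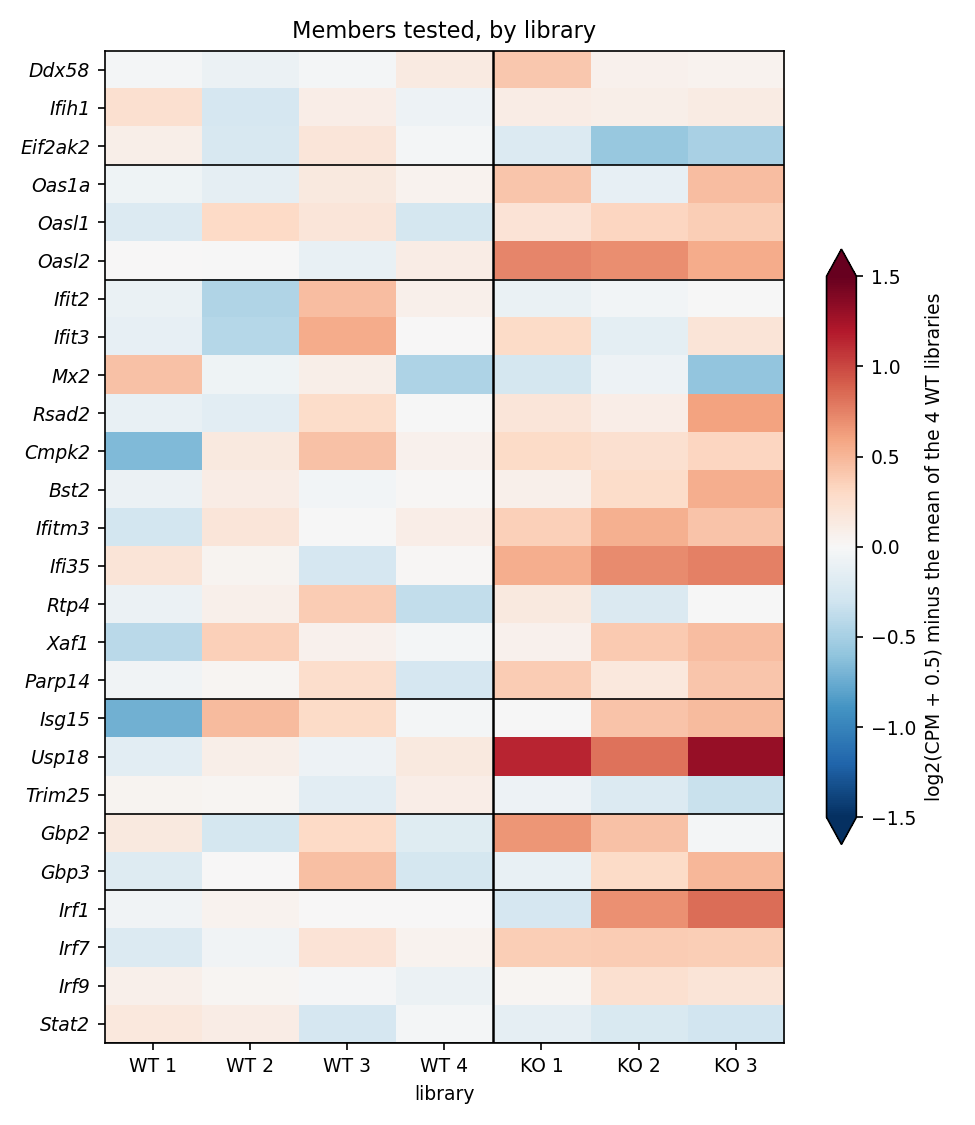
Difference of each tested gene (rows, grouped by role) from the mean of the 4 WT libraries on a log2(CPM + 0.5) scale, in each of the 7 libraries (columns). Usp18 and Oasl2 are above the WT mean in all 3 KO libraries, Eif2ak2 is below it, and among the KO columns Irf1 is below it in library 1 only.

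Levels were low for most of the set. Of the 32 genes, 14 had a WT mean under 1 CPM (scaled by the trimmed mean of M values, TMM), 13 lay between 1 and 10 CPM and 5 at 10 CPM or more. Trim25, Bst2 and Eif2ak2 together made up 65.6% of the summed level in WT. Per kilobase of transcript, the highest was Bst2, a membrane protein that tethers budding virions, at 73.8 ± 4.43 CPM per kilobase in WT (SD, n = 4). Trim25, a ubiquitin ligase that acts on RIG-I, followed at 16.7 ± 1.22 and overlapped the next, the entry inhibitor Ifitm3, at 14.0 ± 1.93 (both SD, n = 4). Eif2ak2 stood at 6.62 ± 0.827, Ifi35 at 5.34 ± 0.727 and Oasl2 at 4.66 ± 0.294 CPM per kilobase (SD, n = 4), and neighbours in that order overlapped from library to library. In the KO libraries Ifitm3 passed Trim25 (19.1 ± 1.19 and 14.5 ± 1.34, SD, n = 3). At the other end, Mx1, Ifi44, Iigp1, Ifit1 and Zbp1 had WT means under 0.04 CPM per kilobase.

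**Figure D3:**
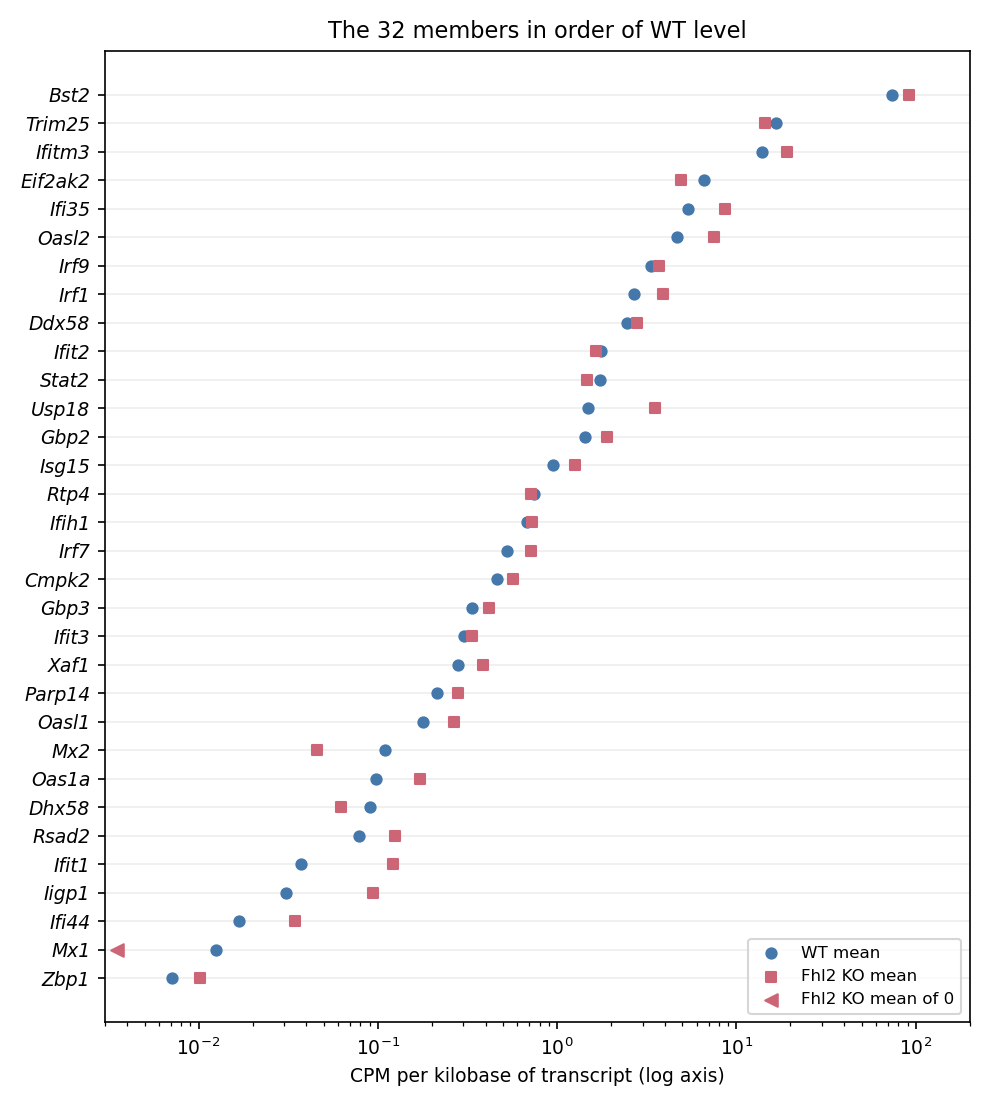
Mean level of all 32 genes in CPM per kilobase of transcript (log x axis), ordered by the WT mean, with circles for WT (n = 4), squares for Fhl2 KO (n = 3) and a triangle at the edge for a KO mean of 0. Levels span from 0.0071 (Zbp1) to 73.8 (Bst2) in WT, and Oasl2 goes from 4.66 to 7.47.

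The promoters show which of these genes carry the sequence bound by the complex of STAT2 and IRF9. RefSeq promoter windows (GRCm38.p6, from 250 bases before to 50 after the start) were found for 24 of the 32 genes, in 28 windows. No window was matched for Dhx58, Zbp1, Mx1, Mx2, Rtp4, Parp14, Usp18 or Iigp1. The ISRE core (GAAA, any 2 bases, GAAA), searched on both strands, was present in 13 of the 28 windows (46.4%, exact 95% interval 27.5% to 66.1%) and in 3.44% of all 32851 windows. The longer form, which is the core followed by CT, was in 8 of 28 (28.6%) and in 0.271% of all windows. GAS, searched as TTCNNNGAA on both strands, was in 7 of 28 (25.0%, interval 10.7% to 44.9%) and in 8.30% of all. These intervals treat the 28 windows as independent, although they came from 24 genes. Windows around matches are printed for genes of 5 roles that the results below describe, 5′ to 3′ on the gene's strand, with each ISRE core in capitals (on the opposite strand the ISRE core reads TTTC, any 2 bases, TTTC). Isg15 has 3 overlapping cores and Bst2, Oas1a and Gbp3 have 2 each, while Irf1 is shown for its GAS, in capitals there. Matches to other motifs are left in lower case.
Bst2, chr8:71537567-71537622, minus strand: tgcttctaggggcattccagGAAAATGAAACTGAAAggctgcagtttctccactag
Oas1a, chr5:120907526-120907565, minus strand: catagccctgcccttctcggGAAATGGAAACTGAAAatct
Isg15, chr4:156200855-156200916, minus strand: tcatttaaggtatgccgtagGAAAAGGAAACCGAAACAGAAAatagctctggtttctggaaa
Ifit3, chr19:34583387-34583436, plus strand: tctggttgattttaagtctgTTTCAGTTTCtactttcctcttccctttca
Gbp3, chr3:142559979-142560034, plus strand: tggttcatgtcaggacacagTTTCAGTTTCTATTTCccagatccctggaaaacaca
Irf1, chr11:53769904-53769952, plus strand: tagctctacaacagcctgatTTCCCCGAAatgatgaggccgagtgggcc

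A match is a description of letters and not a shown binding site. Between the last capital and the start lay 114 bases in Bst2, 56 in Isg15, 29 in Gbp3 and 4 in Oas1a. Of the 6 genes that passed the test, 5 had a window, and 3 of these held the core: Bst2 before the start, and Ifitm3 and Eif2ak2 after it. Among all 24 genes of the set with a window, 13 (54.2%) held the core. GAS was in 4 of the 5 genes that passed and in 7 (29.2%) of the 24. The windows of Oasl2 and Ifi35 held no core. Genes with the core were thus found among those that rose (Bst2, Ifitm3), the one that fell (Eif2ak2) and those that did not pass (Isg15, Oas1a, Ifit3, Gbp2, Gbp3, Stat2, Rsad2, Ddx58 and Ifih1). The window of the untested Ifit1 also held it.

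The sensors detect viral RNA or DNA in the cytoplasm, and of the 3 tested, 1 fell and none rose (median log2 fold change 0.11). Such a count, 33.3% of those tested, cannot be told from the 29.0% of all genes tested that passed. Eif2ak2, on chromosome 17 from 78852564 to 78882573 (mm10), codes for the kinase PKR, which binds double-stranded RNA and halts translation. Its level was 30.2, 23.9, 32.2 and 27.9 CPM in WT libraries 1 to 4 and 24.6, 19.0 and 20.1 CPM in KO libraries 1 to 3. KO libraries 2 and 3 lay below all WT libraries, and KO library 1 lay above WT library 2. Eif2ak2 fell, with a log2 fold change of -0.43 (SE 0.119, edgeR adjusted p = 0.0139) and of -0.29 after the length and GC correction (edgeR adjusted p = 0.0446). Its call was lost without WT library 3, KO library 2 or KO library 3 (0.0849 without the last) and for KO library 1 alone (log2 fold change -0.22, edgeR adjusted p = 0.445).

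Ddx58, the RNA helicase RIG-I, stood at 9.54 ± 0.687 CPM in WT (SD, n = 4) and 10.9 ± 1.63 in KO (SD, n = 3). Its log2 fold change was 0.19 (SE 0.127, edgeR adjusted p = 0.287), and 0.29 after the correction. Ifih1, the related helicase MDA5, stood at 3.70 ± 0.620 and 3.98 ± 0.0520 CPM (0.11, SE 0.170, edgeR adjusted p = 0.672, and 0.35 after the correction). Both groups overlapped for both genes. Dhx58, the third helicase of this family, had 2 to 17 reads per WT library and 5 to 9 per KO library. Zbp1, a sensor of Z-form nucleic acid, had at most 4 reads in any library.

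The oligoadenylate synthetase family, whose active members make the 2'-5' oligoadenylates that switch on RNase L, had 1 of 3 genes higher (median 0.68). The share, 33.3%, was near the 29.0% of all genes tested that passed. Oasl2, on chromosome 5 from 114896936 to 114912234, stood at 14.6, 14.4, 13.5 and 15.7 CPM in WT libraries 1 to 4 and at 24.6, 23.9 and 21.6 CPM in KO libraries 1 to 3. Every KO library was above every WT library. Oasl2 rose, with a log2 fold change of 0.68 (SE 0.102, edgeR adjusted p = 2.5e-04). The value was 0.69 after the length and GC correction. It passed in all 19 alternative settings, with adjusted p from 5.3e-08 to 0.00219. Oasl1 had 10 to 29 reads in each library, with a log2 fold change of 0.56 (SE 0.433, edgeR adjusted p = 0.351). Oas1a, a catalytic synthetase, had 6, 6, 12 and 9 reads in WT and 16, 6 and 20 in KO (0.80, SE 0.562, edgeR adjusted p = 0.304), so KO library 2 was as low as WT. Oas1a shares 47.6% of its 75-base stretches with Oas1g (0 to 8 reads in any library), and the sources used here do not say how reads of near-identical genes were counted.

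The ISG15 system attaches the ubiquitin-like protein ISG15 to other proteins and removes it. Usp18, on chromosome 6 from 121245906 to 121270917, codes for the protease that removes ISG15 and that also blocks signalling at the type I interferon receptor. Its level was 2.30, 2.83, 2.46 and 2.95 CPM in WT libraries 1 to 4 and 6.40, 4.99 and 7.20 CPM in KO libraries 1 to 3. Even the lowest KO library was well above the highest WT library. Usp18 rose 2.35-fold (log2 fold change 1.23, SE 0.170, edgeR adjusted p = 1.2e-04), the largest rise among the tested genes. After the length and GC correction the value was 1.09 (edgeR adjusted p = 3.5e-04). Usp18 passed in all 18 alternative settings in which it was tested (0.00308 at the highest, without KO library 3). A noncoding gene on the opposite strand, Gm44148, overlaps 4.4% of its exon bases and had 0 to 1 reads in all libraries but KO library 3, which had 10.

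Isg15 itself had 8, 56, 43 and 28 reads in WT libraries 1 to 4 and 26, 50 and 51 in KO libraries 1 to 3. WT library 1 was lowest and the groups overlapped, with a log2 fold change of 0.38 (SE 0.426, edgeR adjusted p = 0.534). The value was 0.11 without WT library 1, 0.69 without WT library 2 and 0.11 after the length and GC correction. Trim25 stood at 93.5 ± 6.85 CPM in WT (SD, n = 4) and 81.1 ± 7.47 in KO (SD, n = 3), with a log2 fold change of -0.20 (SE 0.0947, edgeR adjusted p = 0.113). It passed as lower without KO library 1 (-0.25, edgeR adjusted p = 0.0240) and with limma voom, and stood at 0.04 after the length and GC correction.

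**Figure D4:**
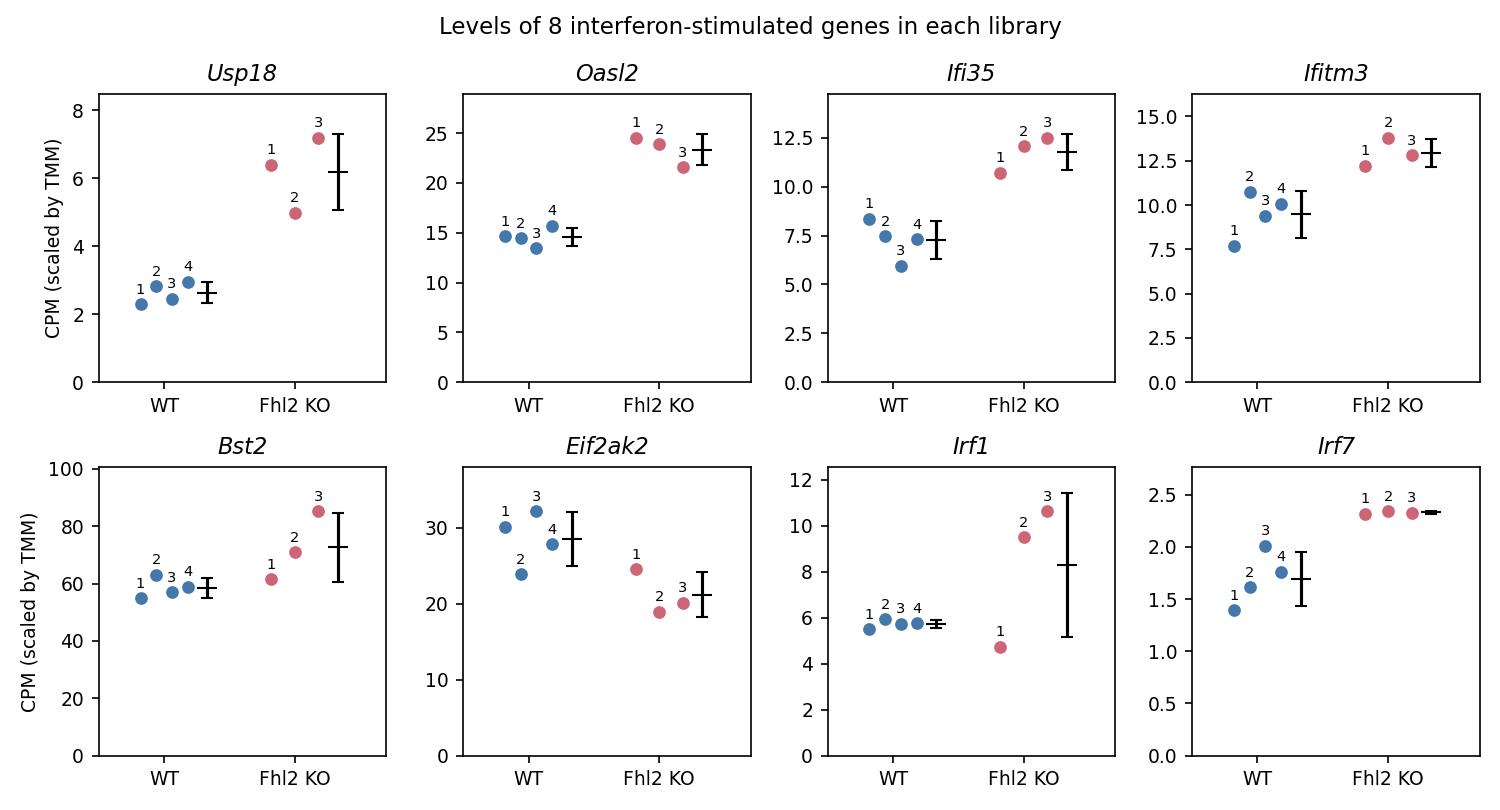
Level in CPM (y axis, from 0, scaled by TMM) of 8 genes in each library, with the replicate number above each point and the mean with SD at the right of each group (4 WT and 3 Fhl2 KO libraries). For Usp18, Oasl2, Ifi35, Ifitm3 and Irf7 all KO points lie above all WT points, and for Irf1 KO library 1 lies below all WT points at 4.74 CPM.

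The antiviral effectors formed the largest class, with 14 genes, of which 11 were tested, 3 rose and none fell (median 0.31, or 0.19 after the length and GC correction). That is 27.3% of those tested, beside 29.0% of all genes tested. Ifi35, on chromosome 11 from 101448407 to 101458698, codes for a leucine-zipper protein induced by interferon. It stood at 8.37, 7.47, 5.97 and 7.31 CPM in WT libraries 1 to 4 and at 10.7, 12.1 and 12.5 CPM in KO libraries 1 to 3. Each KO library was above each WT library. Ifi35 rose by 0.70 (1.62-fold; SE of the log2 value 0.132, edgeR adjusted p = 0.00159), and by 0.46 after the correction (edgeR adjusted p = 0.00960). For KO library 1 alone against WT the value was 0.56 (edgeR adjusted p = 0.0776). The antisense gene Gm11626, which overlaps 16.8% of its exon bases, had at most 2 reads in any library.

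Ifitm3, on chromosome 7 from 141009586 to 141010770, codes for a membrane protein that keeps viruses from fusing in endosomes. Its level was 7.69, 10.7, 9.39 and 10.1 CPM in WT libraries 1 to 4 and 12.2, 13.8 and 12.8 CPM in KO libraries 1 to 3. The groups did not overlap, and WT library 1 was lowest. Ifitm3 rose by 0.45 (1.36-fold, SE 0.127, edgeR adjusted p = 0.0152). The call was lost under the length and GC correction (0.19, edgeR adjusted p = 0.248), without KO library 3 (edgeR adjusted p = 0.0603) and for KO library 1 alone (0.36, edgeR adjusted p = 0.262). At 678 bases its transcript is the shortest of the set.

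Bst2, on chromosome 8 from 71534255 to 71537456, stood at 54.9, 63.1, 56.9 and 58.9 CPM in WT libraries 1 to 4 and at 61.6, 71.0 and 85.3 CPM in KO libraries 1 to 3. KO library 1 lay within the WT range and KO library 3 was highest. Bst2 rose by 0.31 (1.24-fold, SE 0.105, edgeR adjusted p = 0.0338), but the call was lost in 9 of 19 alternative settings. Among them were the length and GC correction (0.00, edgeR adjusted p = 0.989), WT library 1, 3 or 4 left out, KO library 3 left out (0.18, edgeR adjusted p = 0.265) and KO library 1 alone (0.073, edgeR adjusted p = 0.772). Bst2 is also a marker of plasmacytoid dendritic cells, whose other marker Siglech had at most 4 reads in any WT library and 0 in each KO library.

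The other tested effectors did not pass. Ifit2, which binds viral RNA, stood at 6.67 ± 1.90 CPM in WT (SD, n = 4) and 6.25 ± 0.231 in KO (SD, n = 3; log2 fold change -0.09). Parp14, a mono-ADP-ribosyltransferase with the longest transcript of the set at 7417 bases, went the other way from Bst2 under the correction. Its log2 fold change was 0.39 (SE 0.230, edgeR adjusted p = 0.209) and 0.76 after the length and GC correction, where it passed (edgeR adjusted p = 0.0207). Rsad2, the radical-SAM enzyme viperin, and Cmpk2, the nucleotide kinase encoded next to it, had log2 fold changes of 0.67 (SE 0.452) and 0.29 (SE 0.287). Rsad2 was at 0.31 without KO library 3, and Cmpk2 at 0.083 without WT library 1 and 0.50 without WT library 3. Xaf1 had 0.45 (SE 0.350), Ifit3 0.14 (SE 0.461) and Rtp4 -0.07 (SE 0.282). Ifit3 shares 41.1% of its 75-base stretches with Ifit3b, and Rtp4 12.4% with Gm45338, which had 63 to 119 reads per library.

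Mx2, of the dynamin-like GTPases that block viral replication, is annotated as a polymorphic pseudogene in the mouse reference. It had 20, 11, 14 and 2 reads in WT libraries 1 to 4 and 5, 10 and 0 in KO libraries 1 to 3 (log2 fold change -1.21, SE 0.823, edgeR adjusted p = 0.289). The value was -2.09 without KO library 2 and -0.63 without KO library 3. Mx1, its neighbour on chromosome 16, had 4, 0, 1 and 2 reads in WT and 0 in each KO library, where a count of 0 allows up to 0.0660 to 0.0772 CPM. Such floors cover counting error only. Among the effectors too low to be tested, Ifit1 had 2, 6, 2 and 8 reads in WT and 13, 9 and 20 in KO, so each KO library was above each WT library. With no filter on low counts, Ifit1 did not pass either (edgeR adjusted p = 0.129). Ifi44 had 0 to 8 reads in WT and 2 to 13 in KO.

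The guanylate-binding proteins and immunity-related GTPases attack the vacuoles of intracellular pathogens and respond mainly to interferon gamma. Neither of the 2 tested passed (median 0.37), a number too small to set apart from the 29.0% of all genes tested that passed. Gbp2 stood at 3.95, 2.87, 4.45 and 3.07 CPM in WT libraries 1 to 4 and at 5.89, 4.97 and 3.45 CPM in KO libraries 1 to 3. KO library 3 lay within the WT range, and the log2 fold change was 0.41 (SE 0.201, edgeR adjusted p = 0.134). Gbp3 had 27 to 64 reads in WT and 30 to 65 in KO (0.32, SE 0.336, edgeR adjusted p = 0.505). Iigp1 had 2, 8, 6 and 2 reads in WT and 14, 14 and 10 in KO, without overlap, and was too low to be tested (edgeR adjusted p = 0.191 with no filter).

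None of the 4 STAT and IRF factors passed (median 0.31), where 29.0% of all genes tested passed. With 4 genes, such a count cannot be told from that share. Irf1, a transcription factor induced through GAS, had the widest spread among the KO libraries. It stood at 5.50, 5.94, 5.73 and 5.75 CPM in WT libraries 1 to 4 and at 4.74, 9.48 and 10.6 CPM in KO libraries 1 to 3. KO library 1 lay below all WT libraries and KO libraries 2 and 3 above them, and the log2 fold change was 0.54 (SE 0.211, edgeR adjusted p = 0.0723). Without KO library 1 it was 0.83 and passed (edgeR adjusted p = 6.6e-05), and for KO library 1 alone it was -0.28. Irf1 also passed with DESeq2, limma voom and no filter on low counts, which makes 4 of 18 alternatives. It did not pass after the length and GC correction (0.39, edgeR adjusted p = 0.1605) or without KO library 3 (0.32, edgeR adjusted p = 0.354).

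Irf7, the factor that amplifies interferon production, stood at 1.39, 1.61, 2.01 and 1.76 CPM in WT libraries 1 to 4 and at 2.32, 2.34 and 2.33 CPM in KO libraries 1 to 3. All KO libraries were above all WT libraries, yet the log2 fold change of 0.46 did not pass (SE 0.210, edgeR adjusted p = 0.112) and passed in none of 18 alternatives (0.0819 at the lowest). Irf9, the DNA-binding part of the STAT complex, stood at 12.8 ± 0.607 CPM in WT (SD, n = 4) and 14.4 ± 1.15 in KO (SD, n = 3; 0.16, SE 0.109, edgeR adjusted p = 0.282). Stat2 stood at 7.65 ± 1.02 and 6.48 ± 0.388 CPM (-0.24, SE 0.140, edgeR adjusted p = 0.211, and -0.12 after the length and GC correction).

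The rest of the pathway was read from further gene lists, beginning with the ligands. Of 21 interferon genes, 20 had 0 reads in all 7 libraries and Ifnb1 had 1 read, in WT library 1. A count of 0 allows up to 0.0594 to 0.0772 CPM per library. Of 10 receptor chains and kinases tested, Il10rb, a chain of the interferon lambda receptor, rose by 0.51 (SE 0.111, edgeR adjusted p = 0.00367). Ifngr2, a chain of the interferon gamma receptor, fell by 0.29 (SE 0.0916, edgeR adjusted p = 0.0274), a call lost in 8 of 19 alternatives.

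Upstream of the ligands, 19 sensing and signalling genes were tested, and 10.5% passed. Among negative regulators 11.8% passed, beside 29.0% of all genes tested. Irf3, the factor that induces interferon beta, rose by 0.31 (SE 0.0869, edgeR adjusted p = 0.0139), and was at 0.12 after the length and GC correction (edgeR adjusted p = 0.213). Traf3, an adaptor of that route, fell by 0.68 (SE 0.150, edgeR adjusted p = 0.00502), and by 0.42 after the correction (edgeR adjusted p = 0.00831). Of 17 negative regulators, Tnfaip3, the ubiquitin-editing enzyme A20, had 295, 422, 444 and 491 reads in WT libraries 1 to 4 and 557, 1247 and 2035 in KO libraries 1 to 3. It rose by 1.63 (SE 0.394, edgeR adjusted p = 0.0291), with a call lost in 7 of 19 alternatives, among them leaving out any WT library or KO library 2. Pias1, a SUMO ligase that inhibits STAT signalling, fell by 0.35 (SE 0.114, edgeR adjusted p = 0.0275), and was at -0.12 after the correction (edgeR adjusted p = 0.330).

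Of 57 other interferon-stimulated genes, 40 were tested, 7 rose and 3 fell (median 0.15). That is 25.0% of those tested, beside 29.0% of all genes tested. The 5 with the smallest p were Tap1, a peptide transporter (0.60), Ifitm2 (0.49), Ifi27 (0.52), Slfn9 (-0.55) and Ube2l6, the conjugating enzyme of ISG15 (0.61, SE 0.140, edgeR adjusted p = 0.00482). After the correction Ifitm2 stood at 0.18, Ifi27 at 0.26 and Slfn9 at -0.28, where Slfn9 did not pass (edgeR adjusted p = 0.0561). The other 2 that fell, Trim56 and Znfx1, were chosen for naming after their values were seen, and both lost their calls under the correction (edgeR adjusted p = 0.698 for Trim56).

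MHC class I and immunoproteasome genes present peptides on the cell surface. Like the set, this list was chosen with earlier results of these data known. Of 19 tested, 14 rose and none fell (median 0.57). That is 73.7%, where 29.0% of all genes tested passed and 13.5% passed as higher. After the correction 10 rose and the median was 0.45, where 23.5% of all genes passed in either direction. Tap1 is counted here and among the other interferon-stimulated genes. H2-D1, a class I heavy chain, stood at 90.8, 85.9, 90.2 and 89.2 CPM in WT libraries 1 to 4 and at 144.0, 154.2 and 165.1 CPM in KO libraries 1 to 3. The groups were far apart for this gene (0.79, SE 0.0849, edgeR adjusted p = 7.9e-06). Psmb8, a catalytic subunit of the immunoproteasome, rose by 1.33 (SE 0.173), H2-K1 by 0.64 (SE 0.0882), Tap1 by 0.60 (SE 0.119) and Tap2 by 0.57 (SE 0.116). H2-D1, Psmb8, H2-K1 and Tap2 passed in all alternatives in which they were tested, and Tap1 lost its call for KO library 1 alone (0.45, edgeR adjusted p = 0.111). Class I heavy chains are close copies of one another, so reads may be split between them.

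**Figure D5:**
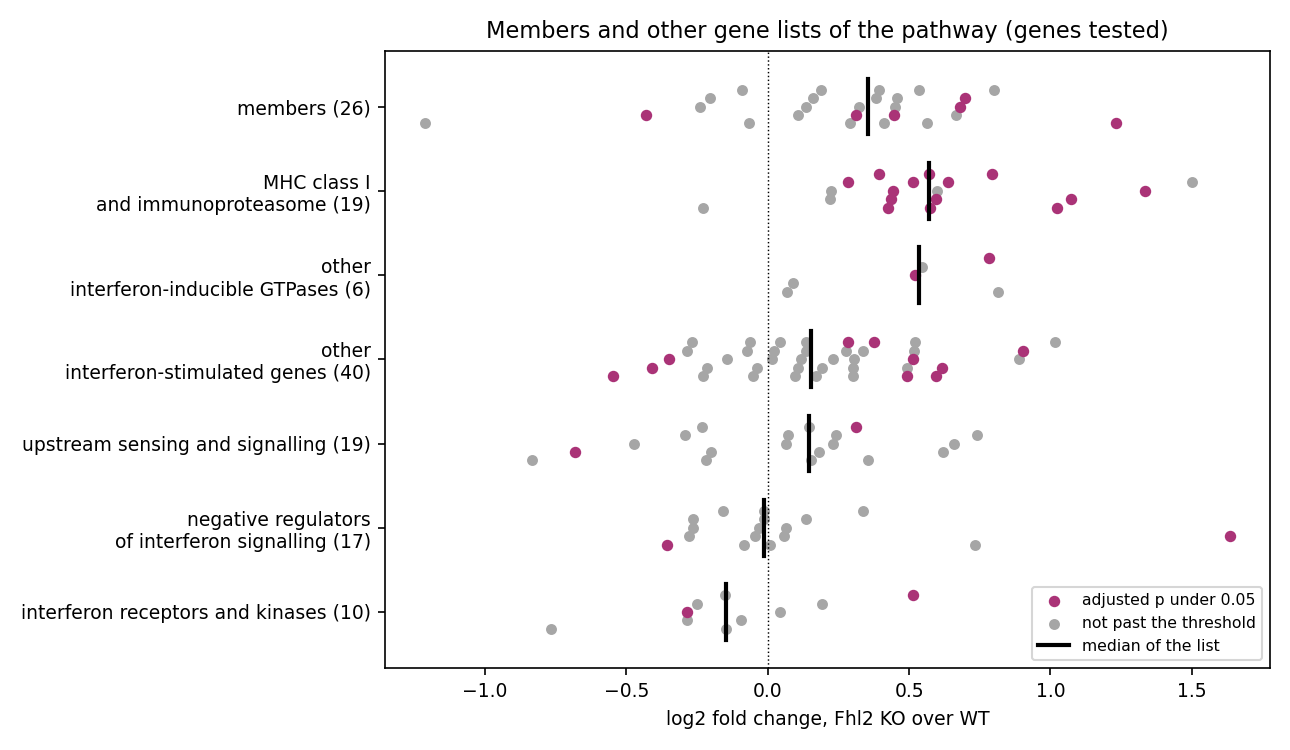
Log2 fold change (x axis, Fhl2 KO over WT) of each tested gene in the set and in 6 other lists of the pathway, with the number tested in brackets, genes past adjusted p 0.05 in colour and a bar at each list's median. The median is 0.57 for MHC class I and immunoproteasome genes, 0.35 for the set of 26 and -0.15 for receptors and kinases.

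Leukocytes express many genes of the set, so their markers were read in the same libraries. For comparison with the counts below, 29.0% of all genes tested passed. Macrophage and monocyte markers summed to 26.3 to 28.5 CPM in WT and 25.3 to 30.6 CPM in KO, and none of 10 tested passed. Pan-leukocyte and neutrophil markers summed to 1.275 to 2.32 CPM in WT and 1.67 to 2.35 CPM in KO, with 0 to 18 reads of Ptprc. The 13 lymphocyte and plasmacytoid cell markers summed to 56.0 to 64.0 CPM in WT and 62.0 to 86.5 CPM in KO. Nearly all of this was Bst2, itself a gene of the set (54.9 to 63.1 CPM in WT and 61.6 to 85.3 CPM in KO). Of the 2 tested, Bst2 was higher and Cd79a did not pass. Cd3e, Ms4a1 and Gzma, also in that list, had 0 reads in all 7 libraries. Endothelial markers summed to 4.06 to 4.85 CPM in WT and 4.17 to 4.69 CPM in KO, with none of 5 tested past the threshold. Oocyte markers summed to 3.29 to 8.88 CPM in WT and 4.86 to 12.1 CPM in KO, and 1 of 7 tested was lower.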

How the data were processed

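The authors deposited raw counts, whole numbers of reads for each gene in each of the 7 libraries. Build mm10 and, among other tools, HISAT2 2.2.1 and featureCounts 1.6.4 appear in the submitters' processing notes. Per the labels' protocols, libraries came from a stranded mRNA kit. The sources used here give neither the annotation release nor the strand setting, so reads of a gene and its antisense partner may not be separated. Groups came from the labels, which do not say whether libraries came from separate animals, so p-values reflect only how these samples vary, which may be technical.

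The test was edgeR 4.0.16 in R 4.3.3, by glmQLFit (robust) and glmQLFTest on genotype. Low counts were removed by filterByExpr (minimum count 10), scaling was by TMM, and p-values were adjusted by Benjamini-Hochberg over 15798 genes. SE are on the log2 scale. Lengths (the longest transcript) and coordinates came from GENCODE M21. The length and GC correction used each library's spline trend (4 degrees of freedom) as an offset. Alternatives also included DESeq2 1.42.0 and limma 3.58.1 voom, other scalings and filters, and each library left out in turn, 19 in all. The fit without WT library 4 and the fit on 6 libraries without a block are the same fit. Counts of alternatives hold it under both names. The steps were tested on simulated counts. Shared sequence was counted over 75-base stretches of transcripts. Genes of the set and all lists were chosen with earlier results of these data known. Every gene of the set is accounted for, and up to 5 genes with the smallest p are named from each other pathway list. Marker lists are given mainly as sums and counts, with only a few markers named. One gene of those lists is not reported here.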

Additional observations from a re-analysis of the deposited data

How the results depend on the processing

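Depth was ample for genes above 1 CPM, while the 6 untested genes and others with under 30 reads per library are limited by counting. The KO group has 3 libraries, and KO library 1 differs from the other two in its length trend and in several genes. Length dependence and marker shifts move with genotype, and the labels give no batch.

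The number of genes passing over the whole table ranged from 1657 (without KO library 3) to 6740 when each library was left out, and was 2994 without WT library 3. It was 781 for KO library 1 alone against WT. Genes of the set that passed ranged from 3 to 8, and were 2 for KO library 1 alone. The median log2 fold change of the set ranged from 0.26 to 0.51, and was 0.47 with limma voom. The labels do not say whether the replicate numbers pair the samples. Deviations of same-numbered libraries correlated at 0.033, -0.001 and -0.032, and those of differently numbered libraries at -0.085 to 0.099. Correlations this small do not settle whether the numbers are pairs. With the replicate block, in 6 libraries, 3301 genes and 5 of the set passed (4 higher, 1 lower; median 0.32), and without the block in the same 6 libraries 2960 and 5 did (median 0.31).

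Signs turned for some genes, and the cause was not tested. With each library left out in turn, Ifit2 ran from -0.22 to 0.10 (the latter without WT library 3), Ifit3 from -0.10 (without WT library 2) to 0.60 and Rtp4 from -0.21 to 0.13 (without WT library 3). Ifit3 was at -0.028 under the length correction, and Rtp4 at 0.020 with voom and 0.16 for KO library 1 alone. For KO library 1 alone, Isg15 was at -0.14, Gbp3 at -0.24 and Irf1 at -0.28. Trim25 was at 0.044 under the length and GC correction and 0.013 under length alone, and Trim56, which had passed as lower, at 0.070 and 0.052. Over the 6 genes of the set that passed, 95 of the gene and setting pairs kept their call and 18 lost it. The longer ISRE form, the core and a shorter form (GAAA, any 2 bases, GAA) were in 28.6%, 46.4% and 53.6% of the set's windows. They were in 0.271%, 3.44% and 8.56% of all windows. Each shorter form includes the matches of the longer, so the core's interval does not test the choice of form.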

Other observations

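Other interferon-inducible GTPases and chemokines, outside the set, were mostly near the detection limit. Of 15 such GTPases, 6 were tested, 2 rose and none fell (median 0.53). That is 33.3% of those tested, beside 29.0% of all genes tested. Igtp, an immunity-related GTPase, stood at 2.04, 2.47, 2.72 and 2.31 CPM in WT libraries 1 to 4 and at 4.13, 3.90 and 4.30 CPM in KO libraries 1 to 3, without overlap (log2 fold change 0.78, SE 0.172, edgeR adjusted p = 0.00403). For KO library 1 alone the value was 0.79, with edgeR adjusted p = 0.0800 for a group of 1 library. Irgm2 rose by 0.52 (SE 0.169, edgeR adjusted p = 0.0285), with the call lost in 7 of 18 alternatives. Of 7 chemokines, 3 had 0 reads in all libraries and only Cxcl10 was tested. Cxcl10, a ligand that draws T cells, had 0, 12, 10 and 2 reads in WT and 14, 42 and 54 in KO. It rose by 2.62 (SE 0.659, edgeR adjusted p = 0.00965), and the call was lost without KO library 3 and for KO library 1 alone (1.45, edgeR adjusted p = 0.542).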
